A study of Xenopus laevis x Xenopus muelleri with 8 samples.

Results

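Transcript levels of 4 genes of germ cells and germ plasm were described in the ovaries of hybrid frogs. The genes were ddx4.L, dazl.L, pld6.S and grip2.L, and each was measured by 1 probe set, taken as every probe set whose single listed gene symbol was one of these names. They made up 4 of 5790 genes and 4 of 11485 probe sets, of which 6798 carried 1 gene symbol. The endings .L and .S mark the long and short copies, or homeologs, that the Xenopus laevis genome holds of many genes. No probe set of the other homeolog of any of the 4 genes was named on the array, so each value stands for the named copy as far as the probes tell the copies apart.

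All 8 frogs had a X. laevis mother from the Cape of South Africa and a X. muelleri father from Swaziland, and were raised from eggs to adulthood in standard conditions with equal light and dark periods. Ovaries of 4 normal and 4 sex-reversed animals, all sexually mature, were taken after killing with the anaesthetic MS222, and total RNA was hybridised to 1 Affymetrix array per sample. The labels do not say how sex was reversed, or the age or family of the animals. The source names of all 8 samples said testis, against ovary in every title, and that of sex-reversed replicate 4 also said normal, so samples were grouped by title. The probes were designed on X. laevis, and a sequence difference in the muelleri allele can lower a value.

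Germ plasm is a patch of cytoplasm rich in mitochondria, RNA and protein that gathers at the vegetal pole of the Xenopus oocyte and marks the cells of the embryo that become germ cells. Its RNAs are made and localised during oogenesis, so a mature ovary, filled with oocytes, holds them in store. Ddx4, also called Vasa, is a DEAD-box RNA helicase found in germ cells across animals. Dazl binds RNA and raises the translation of its targets, and its transcript is a germ plasm RNA in Xenopus. Grip2 is a scaffold protein with PDZ domains, and its transcript is likewise localised to Xenopus germ plasm. Pld6 sits on the outer mitochondrial membrane and takes part in making piRNAs, the small RNAs that silence transposons in the germ line, as known from mouse and fly.

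Values are log2 expression per probe set after RMA, the authors' normalisation, so a step of 1 is a doubling. In whole ovary, fewer cells of a type and less RNA per cell cannot be told apart. Array medians lay between 6.0 and 6.04. The egg envelope genes of the oocyte, zp2.L, zp4.S and zpd.L, stood at mean levels of 10.92, 10.07 and 10.31, while 0 of 7 probe sets of the testis and sperm list lay above the median level of the array, 6.02. All 11 probe sets of the oocyte list did. The granulosa and theca list held 9 probe sets and the blood list 10, of which 4 and 2 lay above it.

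The helicase gene ddx4.L (Entrez Gene 398019) was at 10.15, 10.32, 10.93 and 10.22 in normal replicates 1 to 4. It was at 10.28, 10.35, 10.11 and 10.17 in sex-reversed replicates 1 to 4. Normal replicate 3 stood 0.60 above the next normal ovary, and the remaining 7 ovaries lay within the span from 10.11 to 10.35. The groups overlapped. Normal ovaries averaged 10.41 ± 0.35 (SD, n = 4) and sex-reversed ovaries 10.23 ± 0.11 (SD, n = 4). The difference, sex-reversed minus normal, was −0.18 ± 0.19 (log2, SE), with an adjusted p of 0.90 in limma. This is a ratio of 0.883 with a 95% interval from 0.654 to 1.19. Here and below, SEs of differences and their intervals are those of limma, which draws each variance towards a value shared by all probe sets. They can thus be wider or narrower than the group SDs alone would give. Without normal replicate 3 the difference was −0.01.

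The RNA-binding protein gene dazl.L (Entrez Gene 398041) was at 8.85, 8.65, 9.63 and 8.37 in normal replicates 1 to 4. The sex-reversed replicates 1 to 4 had it at 9.15, 9.06, 8.87 and 8.63. The normal ovaries thus held both the highest and the lowest value, normal replicate 3 and normal replicate 4, and all sex-reversed values fell between them. Group means were 8.88 ± 0.54 (SD, n = 4) and 8.93 ± 0.23 (SD, n = 4). The difference of 0.05 ± 0.27 (log2, SE; adjusted p = 0.982 in limma) gave a ratio of 1.04 with a 95% interval from 0.681 to 1.58. Its sign depended on single ovaries, with 0.30 without normal replicate 3, −0.12 without normal replicate 4, and −0.02 without normal replicate 2 or without sex-reversed replicate 1.

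The germ plasm scaffold gene grip2.L (Entrez Gene 100037236) had values of 10.08, 10.16, 10.13 and 9.97 in normal replicates 1 to 4. In sex-reversed replicates 1 to 4 it had 10.38, 10.19, 10.22 and 10.11. Of the sex-reversed ovaries, 3 lay above all normal ones, and replicate 4 lay among them. The means were 10.08 ± 0.08 (SD, n = 4) and 10.23 ± 0.12 (SD, n = 4), and the difference of 0.14 ± 0.13 (log2, SE) did not pass (adjusted p = 0.883 in limma). The ratio was 1.103 with a 95% interval from 0.902 to 1.35. Without sex-reversed replicate 1 the difference was 0.09.

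The piRNA gene pld6.S (Entrez Gene 100037063) was at 8.79, 8.98, 9.15 and 8.94 in normal replicates 1 to 4. It was at 8.74, 8.90, 8.68 and 8.89 in sex-reversed replicates 1 to 4. Of the normal ovaries 3 lay above every sex-reversed value, while normal replicate 1 lay among them. The means were 8.97 ± 0.15 (SD, n = 4) and 8.80 ± 0.11 (SD, n = 4). The difference of −0.16 ± 0.14 (log2, SE) did not pass (adjusted p = 0.877 in limma), and the ratio was 0.893 with a 95% interval from 0.720 to 1.11. Without normal replicate 3 the difference was −0.10.

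**Figure D1:**
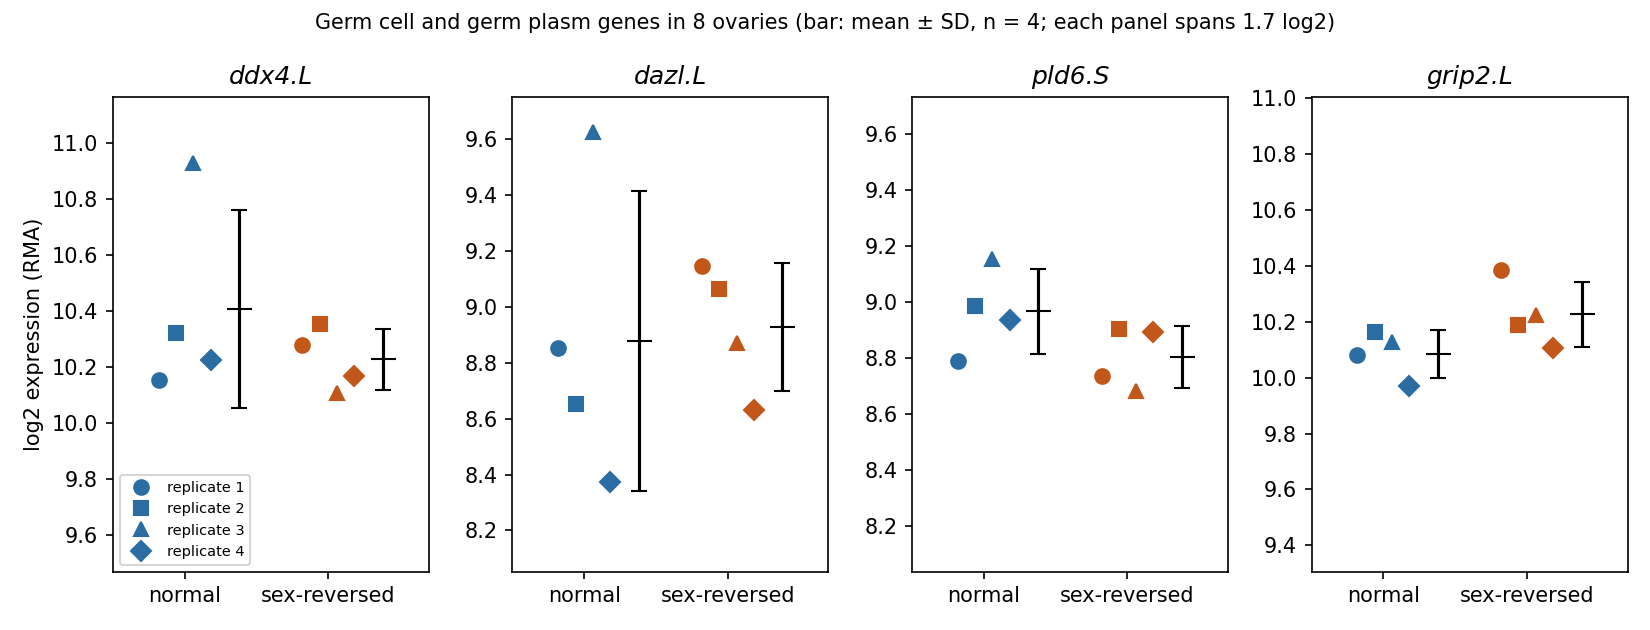
Log2 expression (RMA) of ddx4.L, dazl.L, pld6.S and grip2.L in each of 4 normal (blue) and 4 sex-reversed (orange) ovaries; the marker shape gives the replicate number, black bars are the mean ± SD (n = 4), and every panel spans 1.7 log2 units. The groups overlap in all 4 panels, and normal replicate 3 stands highest for ddx4.L (10.93), dazl.L (9.63) and pld6.S (9.15).

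None of the 4 genes passed an adjusted p of 0.05 in limma, and 0% of all probe sets did. None reached an unadjusted p of 0.05, which 6.38% of all probe sets did, 3.21% higher and 3.17% lower in sex-reversed ovary. Their unadjusted p values in limma ran from 0.265 for pld6.S to 0.853 for dazl.L. Two-sided exact permutation tests over the arrays gave p = 0.486 for ddx4.L, p = 0.943 for dazl.L, p = 0.143 for pld6.S and p = 0.0857 for grip2.L, where 4 against 4 arrays cannot go below 0.0286. The groups did not separate for any of the 4, and they separated for 4.06% of all probe sets. The 95% intervals set bounds on what could have been missed. All 4 genes had intervals that stayed short of a 2-fold difference both ways, as had 78% of all probe sets. Those of pld6.S and grip2.L stayed short of 1.5-fold, a bound for which the share of all probe sets was not counted. These intervals do not show that the groups are alike.

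All 4 transcripts were bright on every array. Ddx4.L lay between the 95.3 and 97.9 percentile of its array and grip2.L between the 94.7 and 96.6 percentile. Pld6.S ran from the 84.0 to the 89.0 percentile, and dazl.L, the most variable, from 80.8 in normal replicate 4 to 92.5 in normal replicate 3. By mean level over the 8 arrays ddx4.L ranked 402 from the top, grip2.L 469, dazl.L 1503 and pld6.S 1526. Probe sets differ in how strongly they bind, so these ranks place signals and do not order the transcripts by abundance.

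The 4 genes differed in how much they varied. Grip2.L had a within-group SD, pooled over both groups, of 0.10, which lay at the 1.88 percentile of all probe sets, and pld6.S one of 0.13, at the 5.48 percentile. Among the 500 probe sets nearest in mean level, whose median pooled SD was 0.21 for grip2.L and 0.24 for pld6.S, 5% had a smaller SD than grip2.L and 10.4% a smaller one than pld6.S. Ddx4.L (pooled SD 0.26) and dazl.L (0.41) varied more than most probe sets of like level, with 72.6% and 82.4% of those below them. The span from the lowest to the highest ovary was 1.33-fold for grip2.L, 1.39-fold for pld6.S, 1.77-fold for ddx4.L and 2.38-fold for dazl.L.

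For ddx4.L and dazl.L much of the spread lay in normal replicate 3. Left out, a setting added after the data were seen, it brought the normal SD of ddx4.L from 0.35 to 0.08 (SD, n = 3) and its pooled SD to 0.10, at the 2.93 percentile of all probe sets. The normal SD of dazl.L went from 0.54 to 0.24 (SD, n = 3) and its pooled SD to the 34.5 percentile. Leaving out the highest array of a gene tends by itself to lower its percentile, so these percentiles do not show steady transcripts. The pooled SD of pld6.S went from 0.13 to 0.11 and that of grip2.L from 0.10 to 0.11. Normal replicate 3 was the highest of the 8 arrays for ddx4.L, dazl.L and pld6.S, and for 15% of all probe sets. For grip2.L it lay 0.03 below the highest normal ovary.

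**Figure D2:**
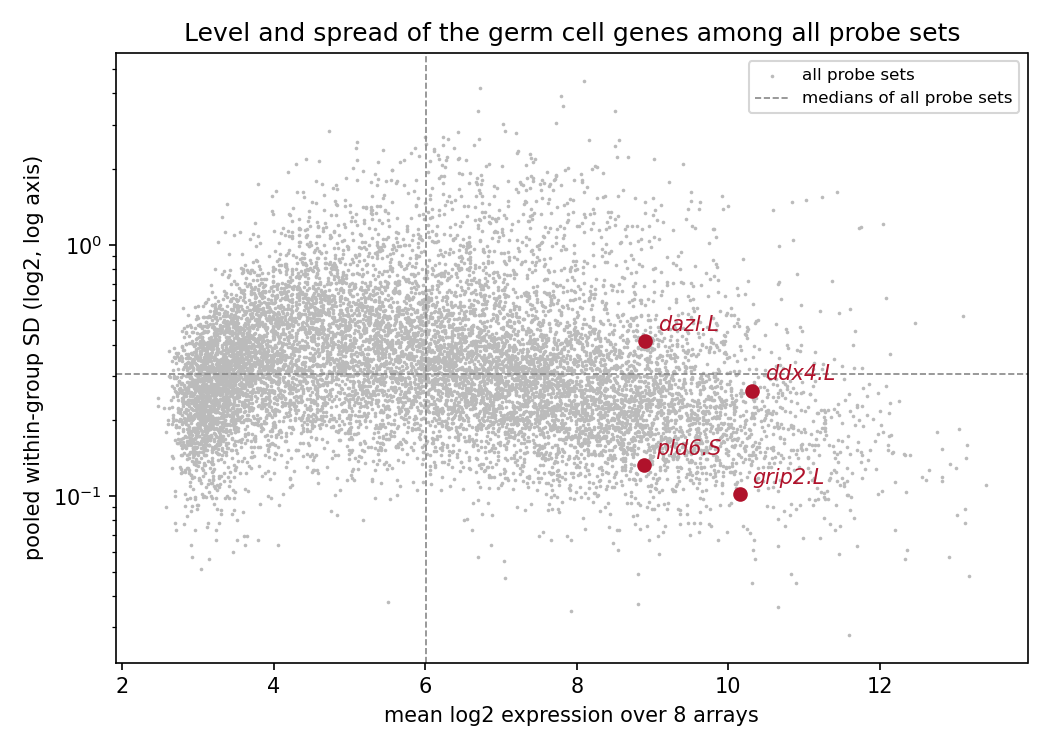
Mean log2 expression over 8 arrays against the within-group SD pooled over both groups (log axis), for all probe sets (grey) and the 4 germ cell genes (red); dashed lines mark the medians of all probe sets (6.02 and 0.30). The 4 genes lie to the right of the median level, with grip2.L (0.10) and pld6.S (0.13) low and dazl.L (0.41) above the median spread.

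The 8 arrays fell into sets of 4 and 4 that cut across the groups, from a hierarchical clustering (average linkage) of their Pearson correlations over all probe sets. The first set held normal replicates 1 and 4 and sex-reversed replicates 3 and 4, and the second the other two of each group. Median correlations between arrays were 0.962 within and 0.947 between the sets. Ddx4.L was at 10.11 to 10.22 in the first set and at 10.28 to 10.93 in the second, without overlap, as were 7.5% of all probe sets. Because the sets were made from the same values, this is a description with no test. The other genes overlapped between the sets, with means higher in the second by 0.44 for dazl.L, 0.12 for pld6.S and 0.12 for grip2.L.

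Within each set, which holds 2 ovaries of each group, the difference between sex-reversed and normal ovary was much the same for grip2.L, at 0.14 in the first and 0.14 in the second. For pld6.S it was −0.08 and −0.25, and for ddx4.L −0.05 and −0.31, where the second set includes normal replicate 3. Dazl.L gave 0.14 in the first and −0.03 in the second set. With the set as a block in limma none of the 4 genes passed (lowest adjusted p = 0.793 for pld6.S).

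**Figure D3:**
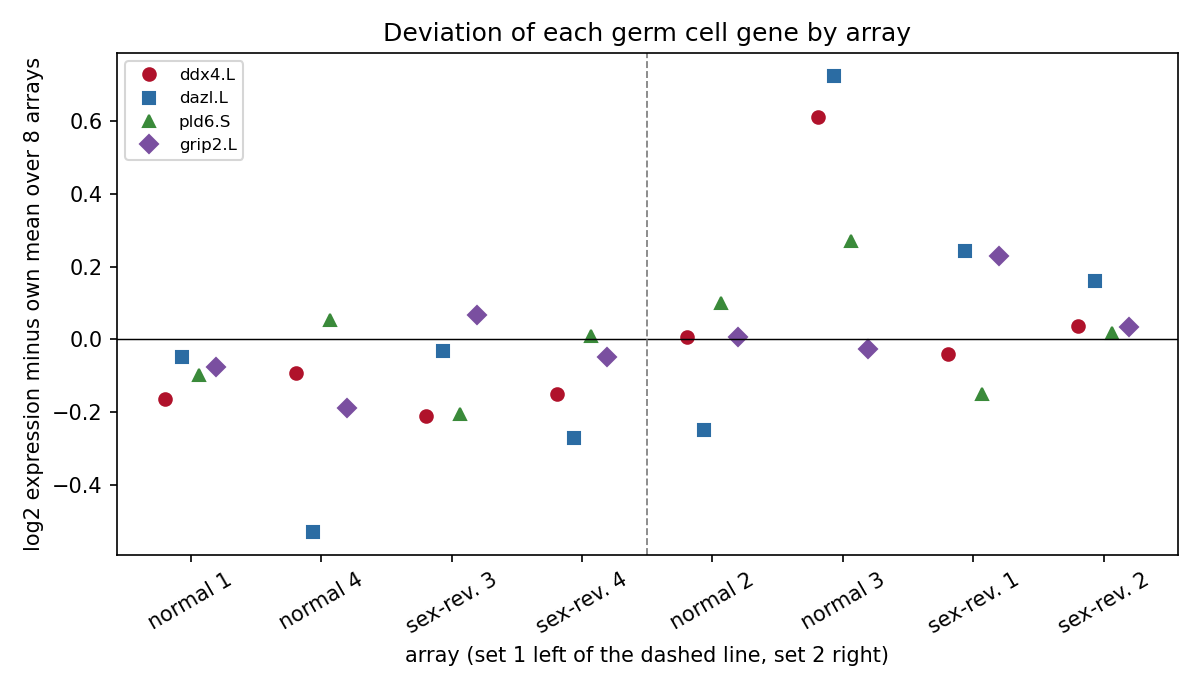
Log2 expression of each gene minus its own mean over 8 arrays, for the 4 arrays of the first set (left of the dashed line) and of the second (right). Ddx4.L lies below its mean on all 4 arrays of the first set, and normal replicate 3 has the highest ddx4.L and dazl.L of all arrays.

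The other germ plasm genes were listed from their known roles, and the array named 17 of them in 18 probe sets. None passed an adjusted p of 0.05 in limma and 0 reached an unadjusted p of 0.05, against 6.38% of all probe sets. In this list 7 probe sets had a higher and 11 a lower mean in sex-reversed ovary, with a median difference of −0.04, against 0.00 over all probe sets. The median size of the difference was 0.06 (log2), against 0.17 over all probe sets. This list was bright, with a median level of 8.75, and the oocyte list, also bright, had a median size of 0.10. The comparison with all probe sets did not allow for level. Of the 18 probe sets 10 lay above the upper quartile of mean level, 7.83. The smallest unadjusted p belonged to rbpms2.L, an RNA-binding protein gene also known as hermes, with a difference of −0.21 ± 0.17 (log2, SE), which ran from −0.30 to −0.11 when 1 ovary was left out. A dim probe set of rbpms2.S gave −0.35 ± 0.33, from −0.56 without normal replicate 2 to −0.08 without normal replicate 1. A bright probe set of rbpms2.S, at a mean level of 10.61, gave 0.02 ± 0.14. Dazap2.S, whose human relative was named for binding DAZ proteins, was at 3.94 and 4.17 in normal and sex-reversed ovary, near the lower quartile of 4.06. Its difference ran from 0.10 without normal replicate 2 to 0.48 without normal replicate 3, where the unadjusted p in limma was 0.0302.

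The means of a few more germ plasm genes are given as examples only. They were named for their roles after their values were seen, so they do not show how the list behaved. Nanos1.L, a translational repressor of the germ line, was at 8.67 ± 0.16 (SD, n = 4) in the normal group against 8.75 ± 0.14 (SD, n = 4) in the sex-reversed one. Ddx25.L, the helicase known as DEADSouth in Xenopus, was at 9.54 ± 0.11 (SD, n = 4) and 9.47 ± 0.16 (SD, n = 4). The germ plasm transcripts germes.L and pgat.L averaged 9.17 and 9.36 in normal and 9.01 and 9.32 in sex-reversed ovary. Normal replicate 3, where ddx4.L and dazl.L were highest, was the highest array for 2 of the 18 probe sets and the lowest for 3. Over all probe sets it was the highest for 15% and the lowest for 14.7%. In the lists below it was the highest for 3 of 6 piRNA probe sets and 4 of 15 of the Dazl partners. It was so for 1 of 16 of RNA transport, 2 of 15 of the outer mitochondrial membrane and 1 of 6 of the GRIP partners.

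The piRNA list was small, with 6 other genes named, each by 1 probe set, of which 5 had a lower mean in sex-reversed ovary. Their median difference was −0.08 and none reached an unadjusted p of 0.05 in limma over all 8 ovaries, against 6.38% of all probe sets. Tdrkh.L, a Tudor domain gene whose mouse protein also sits on mitochondria, was at 6.98 and 6.41 in sex-reversed replicates 1 and 2. The other 6 ovaries had it between 8.85 and 9.74, so the groups overlapped. Its difference was −1.26 ± 0.71 (log2, SE; adjusted p = 0.806 in limma), and it turned on single ovaries. It was −0.70 without sex-reversed replicate 2 and −1.81 without sex-reversed replicate 4 (unadjusted p = 0.0203 in limma). With sex-reversed replicate 4, whose source name says normal, counted as normal it was −1.88 (unadjusted p = 0.00901 in limma), and with the array set as a block its unadjusted p was 0.0368, while the lowest adjusted p of these was 0.597. Parn.L, a 3′ exonuclease gene, gave −0.36 ± 0.30, from −0.55 without sex-reversed replicate 3 to −0.12 without sex-reversed replicate 1. Tdrd6.L, a Tudor domain gene of germ granules, gave −0.15 ± 0.19, from −0.26 without normal replicate 2 to −0.03 without normal replicate 3.

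**Figure D4:**
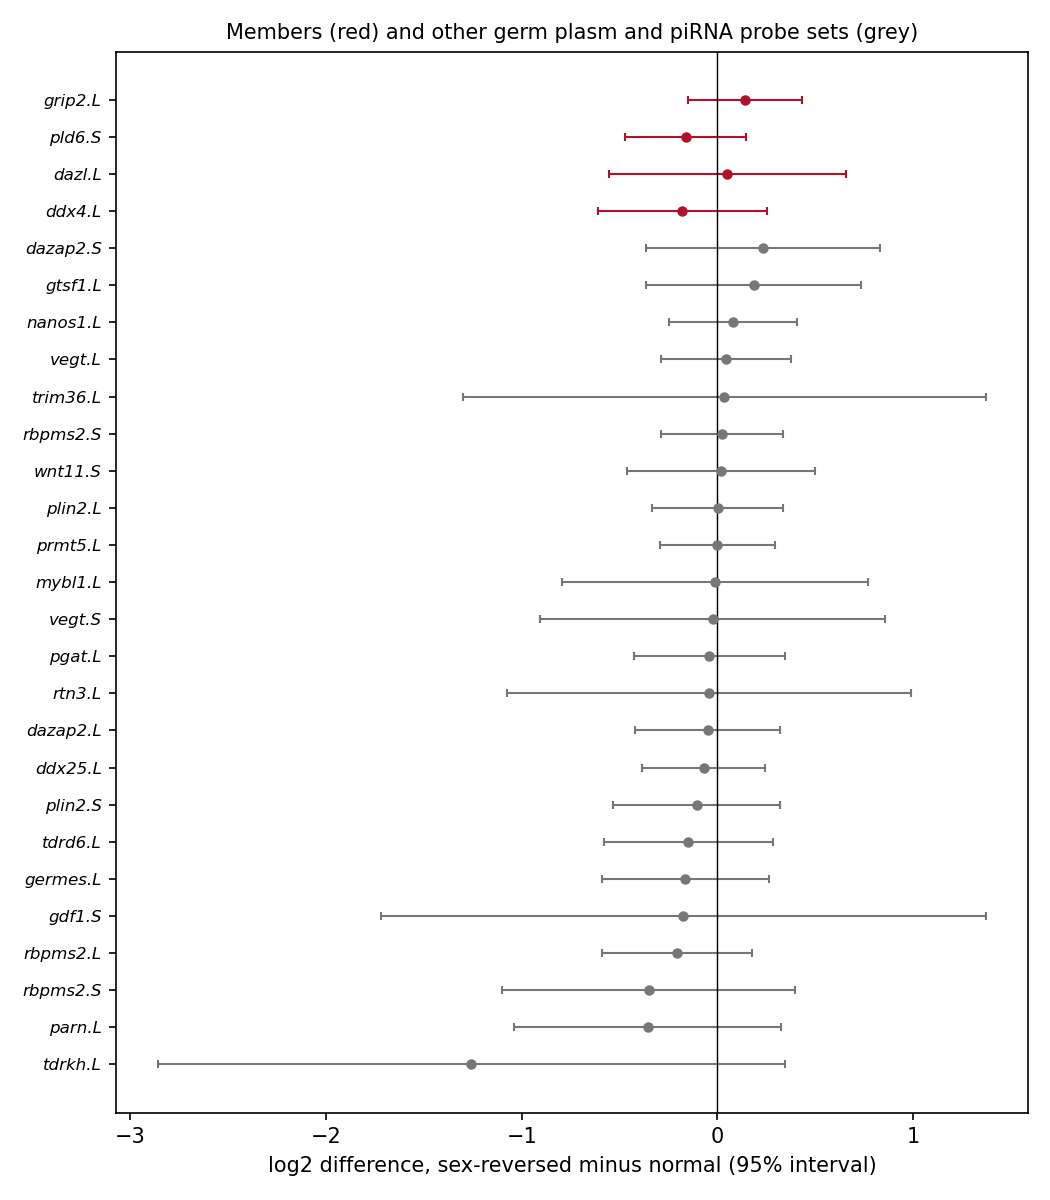
Log2 difference, sex-reversed minus normal, with its 95% interval from limma, for the 4 germ cell genes (red) and the other 23 probe sets of the germ plasm and piRNA lists (grey). Every interval crosses 0, and tdrkh.L has the lowest estimate (−1.26).

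Genes that work with Dazl or in the translation it promotes were measured by 15 probe sets, 5 with a higher and 10 with a lower mean in sex-reversed ovary and a median difference of −0.05. Of the 15, 1 reached an unadjusted p of 0.05 in limma, against 6.38% of all probe sets. This was pabpc1.S, a poly(A)-binding protein gene, at a difference of 0.45 ± 0.17 (log2, SE), with an adjusted p of 0.753 in limma. It averaged 9.84 in normal and 10.30 in sex-reversed ovary, where replicate 4 was at 9.88, among the normal values. Its unadjusted p in limma was 0.0673 to 0.0751 when normal replicate 4 or sex-reversed replicate 1, 2 or 3 was left out. Without sex-reversed replicate 4 the difference was 0.59 (unadjusted p = 0.00373, adjusted p = 0.611 in limma). With that array, whose source name says normal, counted as normal it was 0.58 (unadjusted p = 0.00181, adjusted p = 0.572 in limma). The homeolog pabpc1.L gave 0.11 ± 0.14. Pabpc4.L and 1 dynll1.S probe set gave −0.42 ± 0.26 and −0.51 ± 0.36, and no other probe set of dynll1.S is given here. Leaving out 1 ovary took pabpc4.L from −0.58 to −0.18, and dynll1.S from −0.81 without normal replicate 2 (unadjusted p = 0.0271 in limma) to −0.22 without normal replicate 4.

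Genes of RNA transport to the vegetal pole were measured by 16 probe sets, 6 with a higher and 10 with a lower mean in sex-reversed ovary and a median difference of −0.08. Stau1.L, which codes for a double-stranded RNA-binding protein of RNA transport, was the 1 probe set of this list whose groups did not overlap, as in 4.06% of all probe sets. Normal ovaries stood at 6.42 ± 0.19 (SD, n = 4) and sex-reversed ones at 5.57 ± 0.15 (SD, n = 4). The difference of −0.85 ± 0.15 (log2, SE) did not pass over all probe sets (unadjusted p = 0.000374, adjusted p = 0.582 in limma). Leaving out 1 ovary took stau1.L from −0.91 without normal replicate 4 to −0.78 without normal replicate 2. With sex-reversed replicate 4 counted as normal it was −0.73. Its adjusted p in limma was at least 0.351 under every setting. Upf1.S and igf2bp3.S, which code for an RNA helicase and an RNA-binding protein, gave −0.26 ± 0.16 and −0.26 ± 0.17. Igf2bp3.S ran from −0.39 without normal replicate 2 (unadjusted p = 0.0408 in limma) to −0.17 without normal replicate 3. With sex-reversed replicate 4 counted as normal upf1.S gave −0.14 and igf2bp3.S −0.15.

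Genes of the outer mitochondrial membrane, where Pld6 sits, and partners of Grip2 were looked at in the same way. Outer mitochondrial membrane and fusion genes gave 15 probe sets, 6 with a higher and 9 with a lower mean in sex-reversed ovary. Their median difference was −0.05, and 0 reached an unadjusted p of 0.05 in limma, against 6.38% of all probe sets. The import receptor gene tomm20 was at −0.23 ± 0.12 (log2, SE). It was the 1 probe set of the 15 whose groups did not overlap, as in 4.06% of all probe sets. The fission gene dnm1l.S gave 0.64 ± 0.31 and the porin gene vdac3.L 0.18 ± 0.15. The dnm1l.S difference ran from 0.41 without normal replicate 4 to 0.85 without normal replicate 2 (unadjusted p = 0.0190 in limma), and that of vdac3.L from 0.13 without normal replicate 4 to 0.28 without normal replicate 3. Binding partners of GRIP scaffolds gave 6 probe sets, 3 in each direction, with a median of 0.00. None lay above the upper quartile of mean level, and 0 reached an unadjusted p of 0.05 in limma, against 6.38% of all probe sets. Their smallest unadjusted p values belonged to ppfia1.S (−0.47 ± 0.22), ephb4.L (−0.37 ± 0.25) and gria2.S (0.25 ± 0.21). Leaving out 1 ovary took ppfia1.S from −0.58 without sex-reversed replicate 1 (unadjusted p = 0.0363 in limma) to −0.33, ephb4.L from −0.52 to −0.20, and gria2.S from 0.07 to 0.35. With sex-reversed replicate 4 counted as normal, ppfia1.S gave −0.18 (unadjusted p = 0.527 in limma) and ephb4.L −0.54 (unadjusted p = 0.0405 in limma).

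Over the 6 lists together, 68 probe sets of 64 genes other than the 4 were measured, and 2 of them, or 2.94%, reached an unadjusted p of 0.05 in limma, against 6.38% of all probe sets. These were pabpc1.S and stau1.L. The share was not steady. Without normal replicate 2 it was 7.35% against 6.79% of all probe sets, and without normal replicate 3 it was 7.35% against 6.75%. It was 1.47% against 5.35% without sex-reversed replicate 2, and 5.88% against 7.91% with the array set as a block. With sex-reversed replicate 4 counted as normal it was 5.88% against 6.69%.

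Some probe sets of the marker lists also stood apart between the groups. None in the 4 marker lists passed an adjusted p of 0.05 in limma. In the granulosa and theca list 3 of 9 probe sets did not overlap between the groups, where 4.06% of all probe sets did not. In this list 2 of 9 were lower in sex-reversed ovary at an unadjusted p of 0.05 in limma, against 3.17% of all probe sets. Both were keratins of simple epithelia, krt7.L at −1.08 ± 0.24 and krt8.1.S at −1.43 ± 0.26 (log2, SE). Which cells of the ovary gave the keratin values was not tested. A dim probe set of gja1.L, a gap junction gene, gave 0.32 ± 0.14. Over the 9 probe sets of 6 genes, 4 were higher and 5 lower in sex-reversed ovary, with a median difference of −0.05. The mean of the whole list ran from 5.18 to 6.08 in normal and from 5.13 to 5.72 in sex-reversed ovaries. In the testis and sperm list 1 of 7 and in the blood list 1 of 10 probe sets did not overlap, and in the oocyte list 0 of 11. At an unadjusted p of 0.05 in limma, 1 of 7 testis and sperm probe sets was higher in sex-reversed ovary. Of the 10 blood probe sets 1 was higher and 1 lower, and of the 11 oocyte probe sets 0 were either. Over all probe sets 3.21% were higher and 3.17% lower at this threshold. The part of the cell make-up of the ovaries in the values of stau1.L, tomm20 and tdrkh.L was not tested.

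The genes whose values over the 8 arrays, after subtracting the group means, ran most like each member were found by Pearson's r among 6797 probe sets with 1 symbol. For ddx4.L these were larp1b.L (r = 0.994), XB5945946.L (0.987) and cacfd1.S (0.981), and 53 probe sets were above 0.9. Without normal replicate 3 the r of the same genes was 0.964, 0.891 and 0.954. For dazl.L they were lgals9c.L (0.967), fa2h.L (0.960) and dazap2.S (0.960), with 0.884, 0.889 and 0.844 without normal replicate 3, and 32 probe sets were above 0.9. For pld6.S they were mmp14.L (0.971), fcn3-A (0.970) and lrig3.S (0.967), and for grip2.L mylc2a (0.988), donson.L (0.969) and rwdd1.S (0.969). Among so many probe sets and over 8 arrays such values describe these arrays, with no test. By mean level XB5945946.L, cacfd1.S and fcn3-A were dim, below the lower quartile of all probe sets, 4.06, and dazap2.S lay near it. Detection above background was not tested, so the r of these dim probe sets need not reflect transcript levels. Other probe sets carry the symbols cacfd1.S, mylc2a and rwdd1.S, and their r is not given here.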

How the data were processed

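RNA from 8 ovaries was measured on Affymetrix X. laevis arrays. The authors deposited 1 log2 value per probe set, from RMA as named without a version in the submitters' processing notes. The log base was taken as 2 from how RMA works and from how far the values reach. RMA gives the probe values of all arrays 1 distribution before they are summarised, which hides a change common to most transcripts. Scanner files were not used here and detection above background was not tested. Symbols came from the platform annotation.

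All 11485 probe sets were fitted with limma 3.58.1 in R 4.3.3 (lmFit, eBayes, two-sided, no covariate, 4 against 4, Benjamini-Hochberg over all). Figures used Python 3.11.15 and matplotlib 3.10.9. The fit was tested on simulated data. The 4 genes, the 6 lists, the 4 marker lists and the settings were chosen with earlier results of these data known. From each of the 6 lists the text names probe sets at an unadjusted p of 0.05, or up to 3 of smallest p, besides those said to be chosen later. The granulosa and theca list was treated in the same way. Of the oocyte list only egg envelope genes are named. The testis and sperm list and the blood list are given as counts, without names. The labels call the samples biological replicates and say nothing on relatedness, so p-values reflect only the spread among these 8. The number of arrays limits the precision. Deviations of same-numbered replicates correlated at −0.19, 0.24, −0.19 and 0.17 for numbers 1 to 4. Numbers 2 and 4 each fell within 1 array set, and numbers 1 and 3 were split between the sets. The correlations therefore cannot tell whether numbers mark pairs. The labels do not name pairs, and numbers were not taken as such.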

Additional observations from a re-analysis of the deposited data

Results flagged for a closer look

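In groups of 4, a sample was looked at again when its gap to the nearest of the others was over the 95% critical value of Dixon's test, as a share of the group's range. This was asked of the 4 germ cell genes and the named list genes, 22 probe sets and 44 groups, and chance gives such a gap in about 1 in 20 groups. It was met in 2. Pabpc1.S was at 9.88 in sex-reversed replicate 4, whose source name says normal, against 10.42 to 10.47 in the other sex-reversed ovaries. Upf1.S was at 6.44 in sex-reversed replicate 3, against 6.04 to 6.10. The gap of ddx4.L in normal replicate 3 was 0.782 of the normal range, short of the critical value, and that of dazl.L was 0.616.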

How the results depend on the processing

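The differences of ddx4.L, pld6.S and grip2.L kept their sign under all alternatives run (median centring, repeated quantile normalisation, a trended robust prior, the replicate number as a block, array weights, the array set as a block, sex-reversed replicate 4 counted as normal, dim probe sets left out, and each array left out), and none of the 4 passed under any. Leaving out 1 array gave −0.26 to −0.01 for ddx4.L, −0.12 to 0.30 for dazl.L, −0.22 to −0.10 for pld6.S and 0.09 to 0.18 for grip2.L. The sign of dazl.L turned without normal replicate 2 (−0.02), normal replicate 4 (−0.12) or sex-reversed replicate 1 (−0.02). With sex-reversed replicate 4 counted as normal, the differences were −0.11 for ddx4.L, 0.20 for dazl.L, −0.18 for pld6.S and 0.18 for grip2.L. With the replicate number as a block, the differences were the same and the adjusted p of ddx4.L was 0.927 in limma, and 3 list probe sets reached an unadjusted p of 0.05. That count, 2 in the report, was 4 with the array set as a block, 4 with sex-reversed replicate 4 moved, and 1 to 5 of 68 without 1 array (5, or 7.35%, without normal replicate 2 or 3, 1 without sex-reversed replicate 2). Over all probe sets 0 passed an adjusted p of 0.05 in limma, and 733 an unadjusted one; without 1 array 0 to 2 passed the adjusted threshold (1 each without normal replicate 1, 2 or 3, and 2 without sex-reversed replicate 2), none of them among the 4 genes. The cause of these moves was not tested. Signal over background was not analysed here, which limits what dim list genes can show.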
